A study of Danio rerio with 2 samples.

Results

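The p24 family, named tmed for transmembrane p24 trafficking protein, was described in sorted cells of zebrafish (Danio rerio) embryos. Its members were taken as all genes whose Ensembl gene name starts with tmed and a digit and whose mean over both libraries was at least 1 FPKM (fragments scaled by gene length and by the assigned fragments of the library). Of 21699 genes listed in either library, 11 carried a tmed name and 9 of them passed this limit, out of 14855 genes that did. The 9 members were tmed1, tmed2, tmed3, tmed4, tmed5, tmed7, tmed8, tmed9 and tmed10. The limit lies between tmed8, with a mean of 2.57 FPKM, and tmed6, with a mean of 0.47 FPKM.

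The mutant library was made from morphologically mutant embryos and the sibling library from morphologically normal siblings, both at 44 hours post fertilization. All embryos came from crosses of fish that carry the kdrl:GFP transgene and are heterozygous for tsu3994, an allele of gbf1. Embryos were assigned to groups by appearance, so siblings that carry the allele are not set apart from those that do not, and what the allele does to the gene is not described. The kdrl promoter drives green fluorescent protein in endothelial cells, and GFP+ cells were collected by flow cytometry. There was 1 library in each group, so no difference could be tested between conditions, and each one below compares these 2 libraries. Intervals are exact 95% intervals of the counts. They cover counting error only and hold nothing of how embryos, sorts or preparations vary.

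p24 proteins are small membrane proteins that cycle between the endoplasmic reticulum (ER) and the Golgi. They have a lumenal GOLD domain, a single membrane span and a short cytosolic tail that binds the COPII and COPI vesicle coats. They assemble into complexes that draw on the α, β, γ and δ subfamilies, and their best known cargo is proteins held in the membrane by a glycosylphosphatidylinositol (GPI) anchor. gbf1 encodes a Golgi exchange factor that loads ARF GTPases with GTP, and active ARF recruits the COPI coat, to which p24 tails bind. In endothelial cells, as in others, this route carries surface and secreted proteins.

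The libraries held 6169373 expected counts in the mutant and 5657525 in the sibling sample. Beside endothelial markers they held RNA of markers of other cell types, and where that RNA came from was not tested. kdrl stood at 21.3 FPKM in the mutant and 6.38 FPKM in the sibling library, and cdh5, which encodes VE-cadherin, at 9.03 FPKM in the mutant and 1.96 FPKM in the sibling library. Of 13 endothelial markers, 10 were at least 2-fold higher in the mutant library and none lower, with a summed level of 257 FPKM in the mutant and 69.1 FPKM in the sibling library. All 13 were listed in both libraries. Of all genes with a mean of at least 1 FPKM, 7.22% were at least 2-fold higher and 1.29% lower. These limits are on the scale of FPKM + 1. The interval of the mutant over sibling count ratio lay below 1 for 7.24%. Skeletal muscle markers summed to 247 FPKM in the mutant and 881 FPKM in the sibling library, with 11 of 13 at least 2-fold lower. Of all the muscle genes matched, a tnni2 gene (ENSDARG00000029995) was absent from the mutant table and mybpc1 from the sibling table, and each was set to 0 there. Erythroid markers, most of them globins, summed to 279014 FPKM in the mutant and 367042 FPKM in the sibling library. Of 11 kept, 1 was at least 2-fold lower and none higher. Their counting intervals lay below 1 for 10 of 11 and above 1 for 1, gata1a, at 161 FPKM in the mutant and 131 FPKM in the sibling library. Epidermal markers summed to 817 FPKM in the mutant and 1280 FPKM in the sibling library, with 5 of 11 at least 2-fold lower. Mural and mesenchymal markers summed to 352 FPKM in the mutant and 253 FPKM in the sibling library, with 5 of 9 at least 2-fold higher. Notochord and cartilage markers summed to 76.1 FPKM in the mutant and 77.5 FPKM in the sibling library (6 kept), hatching gland markers to 108 FPKM in the mutant and 62.5 FPKM in the sibling library (4 kept), and liver and pancreas markers to 37.8 FPKM in the mutant and 32.7 FPKM in the sibling library (5 kept). In the hatching gland list cd63, which is not confined to that gland, held 93.4 FPKM of the sum in the mutant and 46.7 FPKM in the sibling library, while the hatching enzyme gene he1.2 was at 0.92 FPKM in the mutant and 4.08 FPKM in the sibling library. A slc4a1 gene (ENSDARG00000024560), acta2 and ctslb, of the erythroid, mural and hatching gland lists, were absent from the sibling table, while another slc4a1 gene (ENSDARG00000012881) was at 2419 FPKM in the mutant and 2768 FPKM in the sibling library. Markers of several cell types thus stood at different levels in the 2 libraries, and their part in the tmed values below was not tested. Fewer cells of a type and less RNA per cell cannot be told apart in such samples.

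gbf1 itself was at 6.13 FPKM in the mutant and 3.44 FPKM in the sibling library, with a count ratio of 2.07 (1.72 to 2.51) per library total. The median gene with a mean of at least 1 FPKM had a log2 fold of 0.25, mutant over sibling, on the scale of FPKM + 1. The median count ratio per library total, taken separately over such genes with sibling counts above 0, was 1.22. It is called the ratio of the median gene below. Per library total, most genes thus stood slightly higher in the mutant library, and the tmed values are read against these medians. With counts scaled between libraries by TMM the median log2 fold was 0.011, and by median of ratios 0.0015. Without the 10 highest genes it was 0.11. Those 10 genes held 27.7% of the counts in the mutant and 35.9% in the sibling library. The height of the median thus depends on the scaling.

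The tmed genes did not differ by a common ratio. Per library total, tmed3 was about 3 times higher in the mutant library, and tmed2, tmed9, tmed5 and tmed8 nearly 2 times or slightly more. On this scale tmed10 and tmed1 were modestly higher, and tmed7 and tmed4 did not differ beyond counting error. The median log2 fold of the 9 members was 0.76, and their range was -0.25 to 1.495. At a limit of 2-fold on the scale of FPKM + 1, 1 of 9 members was higher, against 7.22% of all genes with a mean of at least 1 FPKM, and 0 of 9 were lower, against 1.29%. With every log2 fold centred on the median gene, 1 of 9 (tmed3) was higher, against 3.6% of all genes, and 0 of 9 were lower, against 2.72%. The counting interval of the ratio lay above 1 for 7 of 9 members, against 36.9% of all genes, and below 1 for 0 of 9, against 7.24%. Set against the ratio of the median gene, the interval lay above it for 4 of 9 members (tmed3, tmed8, tmed9 and tmed2), against 18.1% of all genes. It lay below it for 2 of 9 members (tmed7 and tmed4), against 18.9%. Such intervals narrow as counts rise, and the shares of all genes were not matched to the counts of the members.

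**Figure D1:**
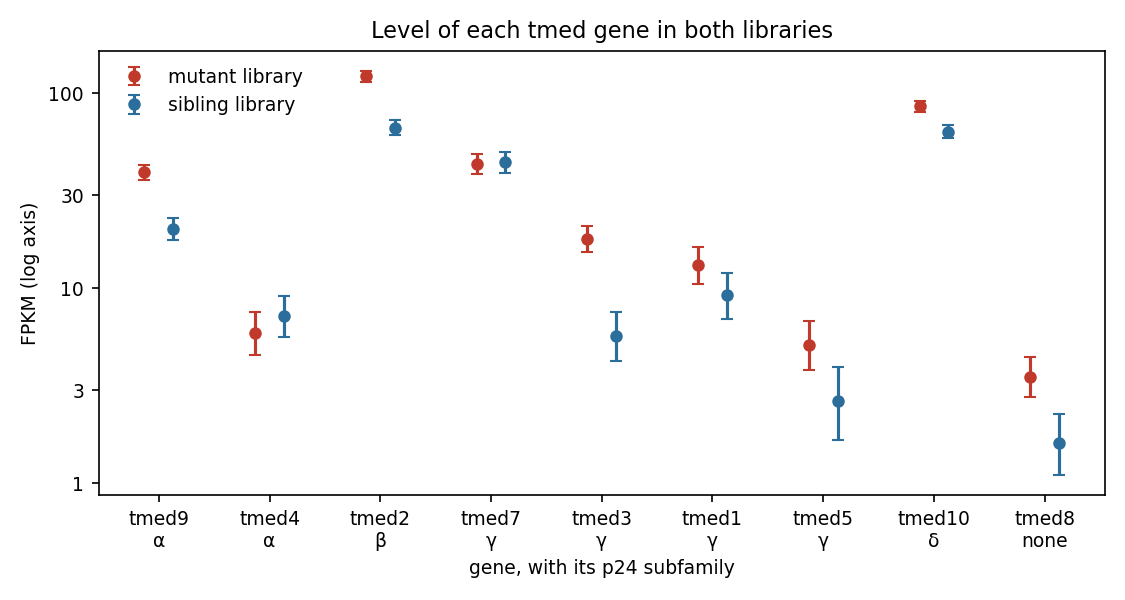
Level of each of the 9 tmed genes in FPKM (log axis) in the mutant and the sibling library, ordered by p24 subfamily, with bars for the exact 95% counting interval. tmed2 and tmed10 stand highest in both libraries, and the points of tmed7 and of tmed4 overlap between the libraries within their bars.

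The β subfamily has tmed2 as its sole member, and the δ subfamily has tmed10. In mammals and yeast these 2 subfamilies form the core of p24 complexes, and the loss of either gene is lethal to mouse embryos. tmed2 (ENSDARG00000026908) was at 122 FPKM (968 expected counts) in the mutant and 66.8 FPKM (473 expected counts) in the sibling library. Its count ratio was 1.88 (1.68 to 2.10) and its log2 fold was 0.86. tmed10 (ENSDARG00000041391) was at 85.8 FPKM (938 expected counts) in the mutant and 63.7 FPKM (641 expected counts) in the sibling library. Its count ratio was 1.34 (1.21 to 1.49), an interval that includes the 1.22 of the median gene. These partners therefore stood at unequal levels in the mutant library, where tmed2 was 1.43 times tmed10 in FPKM (1.303 to 1.56), while in the sibling library the figure was 1.05 (0.93 to 1.18). The ratio of their count ratios was 1.399 (1.202 to 1.63), beyond counting error.

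The α subfamily is represented by tmed9 and tmed4, whose tails in mammals bind COPI. tmed9 (ENSDARG00000004261) was at 39.5 FPKM (489 expected counts) in the mutant and 20.2 FPKM (234 expected counts) in the sibling library. The count ratio of tmed9 was 1.92 (1.64 to 2.25), so per library total this gene was close to 2-fold higher in the mutant library. Its log2 fold of 0.93 was 0.66 with counts scaled by TMM and 1.08 in TPM. tmed4 (ENSDARG00000024954) was at 5.91 FPKM (63 expected counts) in the mutant and 7.23 FPKM (71 expected counts) in the sibling library. Its ratio of 0.81 (0.57 to 1.16) was not distinguishable from 1 at this depth, but the interval lies below the ratio of the median gene. The paralogs differed from each other, with a ratio of count ratios of 2.36 (1.59 to 3.48) for tmed9 over tmed4. tmed9 made up 87.0% of the α transcripts per length in the mutant and 73.7% in the sibling library.

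Of the 9 members, 4 belong to the γ subfamily, more than to any other, and their count ratios ran from 0.98 to 3.13. Of the other subfamilies only α has more than 1 member here, with ratios of 0.81 and 1.92. tmed3 (ENSDARG00000028816) was at 17.9 FPKM (167 expected counts) in the mutant and 5.70 FPKM (49 expected counts) in the sibling library. It had the largest ratio of the 9 members, with a count ratio of 3.13 (2.26 to 4.39) and a log2 fold of 1.495, higher than 98.1% of all genes with a mean of at least 1 FPKM. tmed7 (ENSDARG00000046022), a γ gene known in mammals for the transport of the receptor TLR4, was at 43.4 FPKM (274 expected counts) in the mutant and 44.3 FPKM (257 expected counts) in the sibling library. Its count ratio was 0.98 (0.82 to 1.16), which is not distinguishable from 1. Its log2 fold of -0.03 was 0.12 in TPM, so its sign depends on the scaling.

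tmed1 (ENSDARG00000017255), which in mammals binds a receptor of the interleukin-1 receptor family, was at 13.2 FPKM (86 expected counts) in the mutant and 9.19 FPKM (55 expected counts) in the sibling library. Its count ratio was 1.43 (1.01 to 2.05), just above 1 and not apart from the median gene. tmed5 (ENSDARG00000008765), which in mammals takes part in the export of GPI-anchored proteins, was at 5.15 FPKM (49 expected counts) in the mutant and 2.63 FPKM (23 expected counts) in the sibling library. The count ratio of tmed5 was 1.95 (1.17 to 3.36), a wide interval that includes the ratio of the median gene. Within the subfamily, tmed3 differed from tmed7 by a ratio of count ratios of 3.20 (2.20 to 4.69) and from tmed1 by 2.18 (1.33 to 3.56). tmed5 differed from tmed7 by 1.998 (1.15 to 3.54), while tmed3 and tmed5 did not separate at 1.60 (0.84 to 2.98).

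The γ pool had a different makeup in the 2 libraries. tmed3 held 22.5% of the γ FPKM in the mutant and 9.23% in the sibling library. tmed7 held 54.5% in the mutant and 71.6% in the sibling library, and remained the leading γ gene in both. tmed1 held 16.6% in the mutant and 14.9% in the sibling library, and tmed5 held 6.47% in the mutant and 4.26% in the sibling library.

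tmed8 (ENSDARG00000052390) carries the family name and a GOLD domain but is placed in no p24 subfamily. It was at 3.53 FPKM (75.9 expected counts) in the mutant and 1.61 FPKM (31.8 expected counts) in the sibling library, the lowest of the 9 members in both. Its count ratio was 2.18 (1.42 to 3.40), above the ratio of the median gene. Its log2 fold was 0.80, short of the 2-fold limit because the pseudocount of 1 weighs on low values.

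The remaining tmed names were below the limit and close to 0. tmed6 (ENSDARG00000088079), a γ gene, was at 0.20 FPKM (1 expected count) in the mutant and 0.74 FPKM (3 expected counts) in the sibling library. Its count ratio of 0.31 had an interval of 0.0058 to 3.81, so no difference was detectable. A further gene named tmed1 (ENSDARG00000031325) was at 0.23 FPKM (2 expected counts) in the mutant and 0.13 FPKM (1 expected count) in the sibling library. The files do not tell which of the genes named tmed1 is tmed1a and which is tmed1b.

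**Figure D2:**
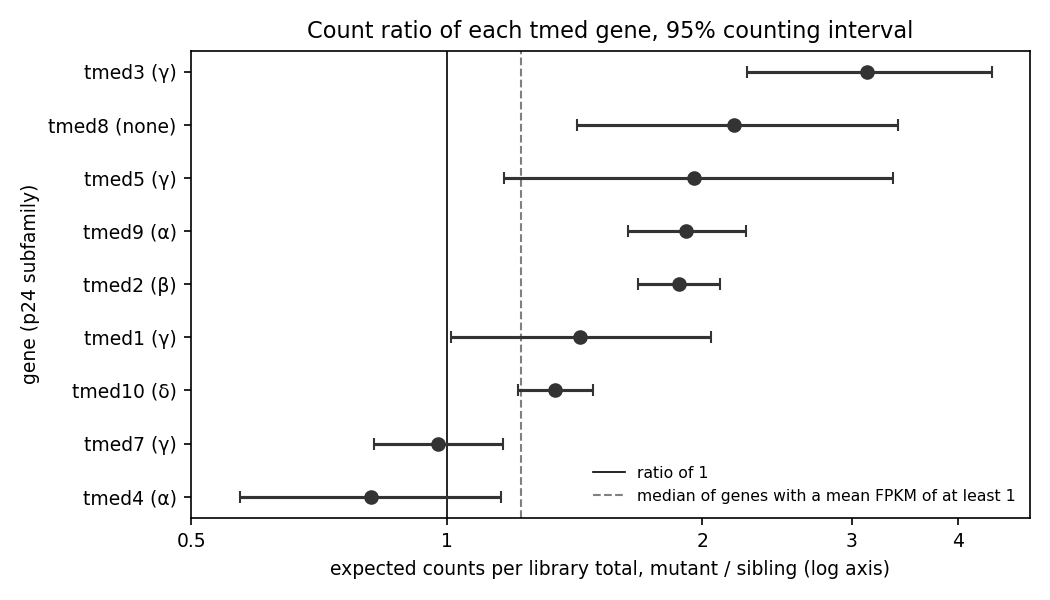
Ratio of expected counts per library total, mutant over sibling, for each tmed gene (log axis), with exact 95% counting intervals, a solid line at 1 and a dashed line at the 1.22 of the median gene. The intervals of tmed3, tmed8, tmed9 and tmed2 lie to the right of the dashed line and those of tmed7 and tmed4 to its left.

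Levels per length spanned a wide range within the family. In the mutant library the order was tmed2, tmed10, tmed7, tmed9, tmed3, tmed1, tmed4, tmed5 and tmed8. Of its 8 pairs of neighbours, tmed7 and tmed9 (1.099, 0.94 to 1.28), tmed4 and tmed5 (1.15, 0.78 to 1.70) and tmed5 and tmed8 (1.46, 0.997 to 2.12) did not differ beyond counting error in FPKM. In the sibling library the order was tmed2, tmed10, tmed7, tmed9, tmed1, tmed4, tmed3, tmed5 and tmed8. There tmed2 and tmed10, tmed1 and tmed4 (1.27, 0.88 to 1.83), tmed4 and tmed3 (1.27, 0.87 to 1.86) and tmed5 and tmed8 (1.63, 0.91 to 2.88) did not differ beyond counting error. The position of tmed3 was thus the sole difference between the orders, as it stood above tmed1 in the mutant library (1.35, 1.04 to 1.78). In the sibling library only neighbours were compared, so the place of tmed3 below tmed1 there has no interval. tmed10 was higher than 95.7% of genes with a mean of at least 1 FPKM in the mutant library and 94.7% in the sibling library, and tmed2 stood above it in both, so these are among the abundant transcripts of both.

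Summed over the 9 members, the family stood at 337 FPKM in the mutant and 221 FPKM in the sibling library, with a ratio of summed counts of 1.55 (1.47 to 1.65). The subfamilies contributed unevenly to this. The β share of the summed FPKM was 36.3% in the mutant and 30.2% in the sibling library. The δ share was 25.5% in the mutant and 28.8% in the sibling library, and the γ share was 23.7% in the mutant and 27.9% in the sibling library. The α share was 13.5% in the mutant and 12.4% in the sibling library. Count ratios of the summed subfamilies were 1.88 for β, 1.66 for α (1.44 to 1.92), 1.38 for γ (1.21 to 1.57) and 1.34 for δ. The γ sum thus hides a 3-fold difference of tmed3 beside none beyond counting error in the more abundant tmed7.

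**Figure D3:**
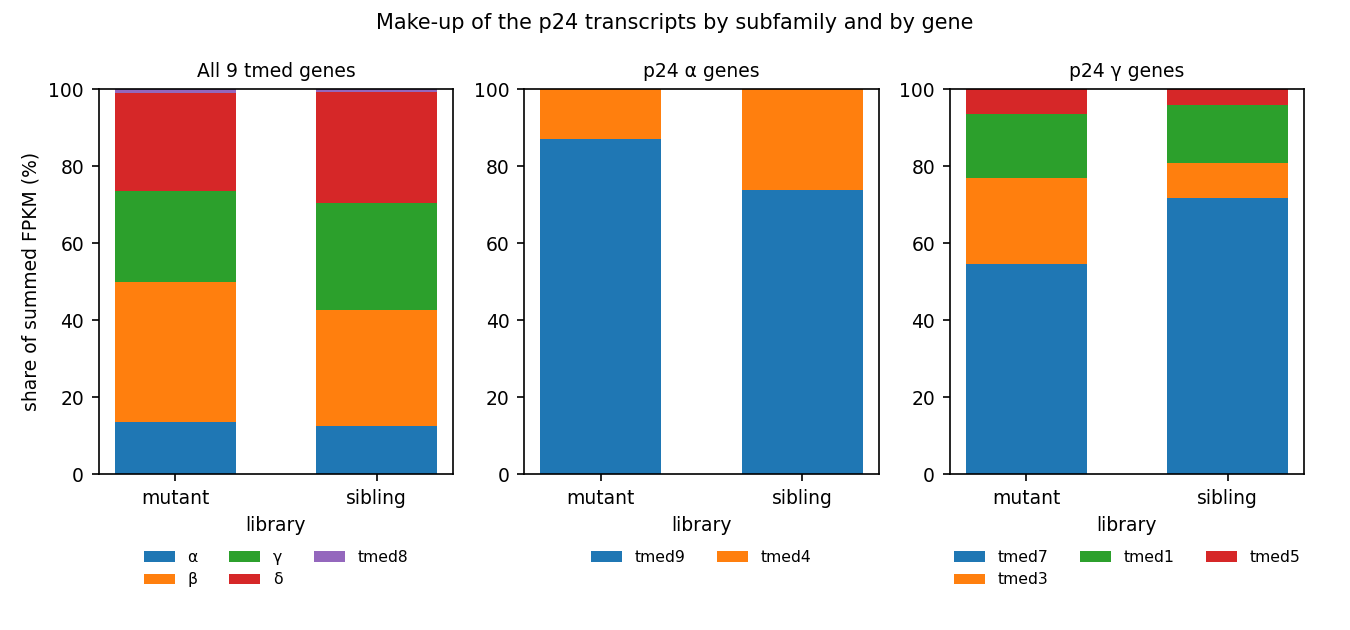
Share of summed FPKM in the mutant (left bar) and sibling (right bar) library held by each p24 subfamily among the 9 tmed genes, by tmed9 and tmed4 among the α genes, and by the 4 γ genes. tmed3 holds 22.5% of the γ pool in the mutant and 9.23% in the sibling library, and tmed9 holds 87.0% of the α pool in the mutant and 73.7% in the sibling library.

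All 36 pairs of members were compared by the ratio of their count ratios, a measure that no scaling between libraries can alter. The interval excluded 1 for 20 pairs, and for 11 of them once the intervals were widened for the number of pairs. The 11 pairs were tmed3 over tmed10, tmed7 and tmed4, tmed9 over the same 3 genes, tmed2 over the same 3 genes, and tmed8 over tmed7 and tmed4. Within the α and γ subfamilies 4 of 7 pairs were beyond counting error, and tmed9 over tmed4 and tmed3 over tmed7 stayed so with the wider intervals. tmed2 and tmed9 could not be told apart (1.02, 0.84 to 1.24), although they belong to different subfamilies. In the 16 pairs within counting error the intervals were often wide, such as 0.55 to 2.23 for tmed8 over tmed5.

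**Figure D4:**
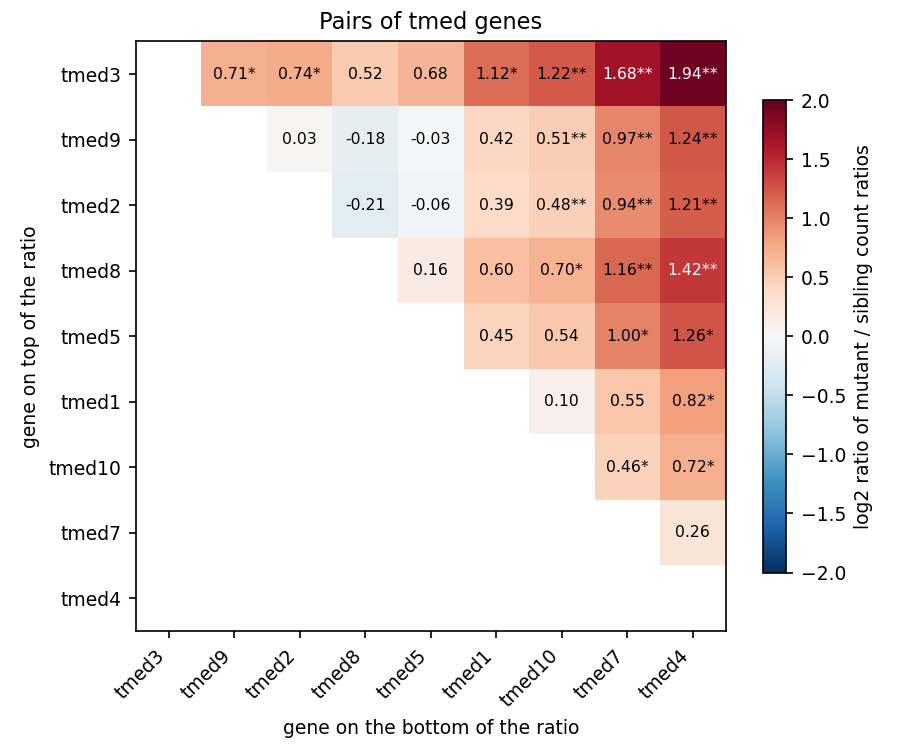
log2 of the ratio of mutant over sibling count ratios for each pair of tmed genes, the row gene over the column gene, ordered by log2 fold. Stars mark the 20 pairs whose 95% counting interval excludes 1. A pair of stars marks the 11 of them that also do so with intervals widened for 36 pairs, and a single star the rest.

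The expected counts of 7 of 9 members were whole to within 0.005 in both libraries. Those of tmed8 were not whole in either library, and that of tmed7 was whole at 274 in the mutant and not at 257.43 in the sibling library, which is how reads divided between loci appear in such counts. Gene length was listed the same in both libraries for 7 of 9 members. For tmed2, with 3 listed transcripts, it was 1273 bases in the mutant and 1238 bases in the sibling library. For tmed9, with 2 listed transcripts, it was 1973 bases in the mutant and 2000.3 bases in the sibling library. The FPKM ratio was 1.83 for tmed2 and 1.95 for tmed9, close to their count ratios of 1.88 and 1.92.

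Beside the family stood the genes it works with, in lists drawn up by function but with earlier results of these data known. Of 9 COPI coat genes, 8 stood at least 2-fold higher in the mutant library and 0 lower, with a median log2 fold of 1.83. They were led by an arcn1 gene (ENSDARG00000002792, 43.1 FPKM in the mutant and 7.41 FPKM in the sibling library), copz2 (29.8 FPKM in the mutant and 5.62 FPKM in the sibling library) and copa (168 FPKM in the mutant and 36.2 FPKM in the sibling library), all subunits of the coat. Of 8 Golgi structure genes, 7 stood at least 2-fold higher and 0 lower, with a median of 1.14. Among them gorasp2, a stacking protein that binds p24 tails in mammals, was at 32.5 FPKM in the mutant and 13.8 FPKM in the sibling library. golga5, a golgin, was at 26.4 FPKM in the mutant and 10.3 FPKM in the sibling library. golga2, also among the 7 by its log2 fold, had a count ratio of 1.87 (1.55 to 2.26). An acbd3 gene (ENSDARG00000042623), which like tmed8 encodes a GOLD domain, was at 19.2 FPKM in the mutant and 7.32 FPKM in the sibling library.

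Other cargo receptors and membrane proteins of the early pathway had 8 of 24 genes at least 2-fold higher and 0 lower and a median of 0.61. yif1a was at 23.6 FPKM in the mutant and 5.95 FPKM in the sibling library. The KDEL receptor kdelr2 (ENSDARG00000037361), which returns ER proteins, was at 38.8 FPKM in the mutant and 13.4 FPKM in the sibling library. The lectin receptor lman1 was at 13.6 FPKM in the mutant and 4.35 FPKM in the sibling library. ARF GTPases and their regulators had 3 of 12 genes at least 2-fold higher and none lower by the log2 fold, with a median of 0.70. Those higher were arf4b (317 FPKM in the mutant and 7.12 FPKM in the sibling library), arf5 (258 FPKM in the mutant and 83.1 FPKM in the sibling library) and arf1 (42.3 FPKM in the mutant and 18.6 FPKM in the sibling library). By counts per library total, arf4a (2.04, 1.77 to 2.34), arfgap3 (2.22, 1.49 to 3.37) and gbf1 (2.07, 1.72 to 2.51) were past 2-fold higher too. On that scale 13% of all genes were at least 2-fold higher. An arf3 gene (ENSDARG00000036998), at 2.31 FPKM in the mutant and 5.30 FPKM in the sibling library, had a count ratio of 0.44 (0.21 to 0.89). It was the sole interval below 1 among the genes kept in these pathway lists.

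The medians of the COPII and GPI anchor lists stood closer to the median gene. Counting intervals lay above 1 for 10 of 15 COPII genes and 8 of 21 GPI anchor synthesis genes, against 36.9% of all genes. COPII coat and ER exit site genes had 2 of 15 at least 2-fold higher and none lower, with a median of 0.48. Those 2 were the coat genes sec24d and sec31a. sec24d was at 33.7 FPKM in the mutant and 7.02 FPKM in the sibling library. sec31a was at 22.8 FPKM in the mutant and 5.45 FPKM in the sibling library. sec24c was at 24.2 FPKM in the mutant and 11.95 FPKM in the sibling library. By counts, sec24c differed less than by FPKM, with a ratio of 1.502 (1.315 to 1.718). GPI anchor synthesis and transfer had 2 of 21 genes at least 2-fold higher and none lower, with a median of 0.26. dpm3, a subunit of dolichol phosphate mannose synthase, was at 11.2 FPKM in the mutant and 3.57 FPKM in the sibling library. The mannosyltransferase pigm was at 6.38 FPKM in the mutant and 2.31 FPKM in the sibling library. pigc, a subunit of the first enzyme of the pathway, was at 8.64 FPKM in the mutant and 4.80 FPKM in the sibling library. GPI anchor remodelling had 0 of 5 genes past 2-fold in either direction on the scale of FPKM + 1, with a median of 0.31. By counts, pgap3 of this list had a ratio of 2.23 (0.88 to 6.35). All 5 had counting intervals that include 1, led by pgap3 (1.79 FPKM in the mutant and 0.83 FPKM in the sibling library), mppe1 (1.72 FPKM in the mutant and 1.12 FPKM in the sibling library) and pgap4 (1.43 FPKM in the mutant and 0.96 FPKM in the sibling library). The share of all genes at least 2-fold higher, 7.22%, applies to each of these lists. The differences between the lists were not tested.

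**Figure D5:**
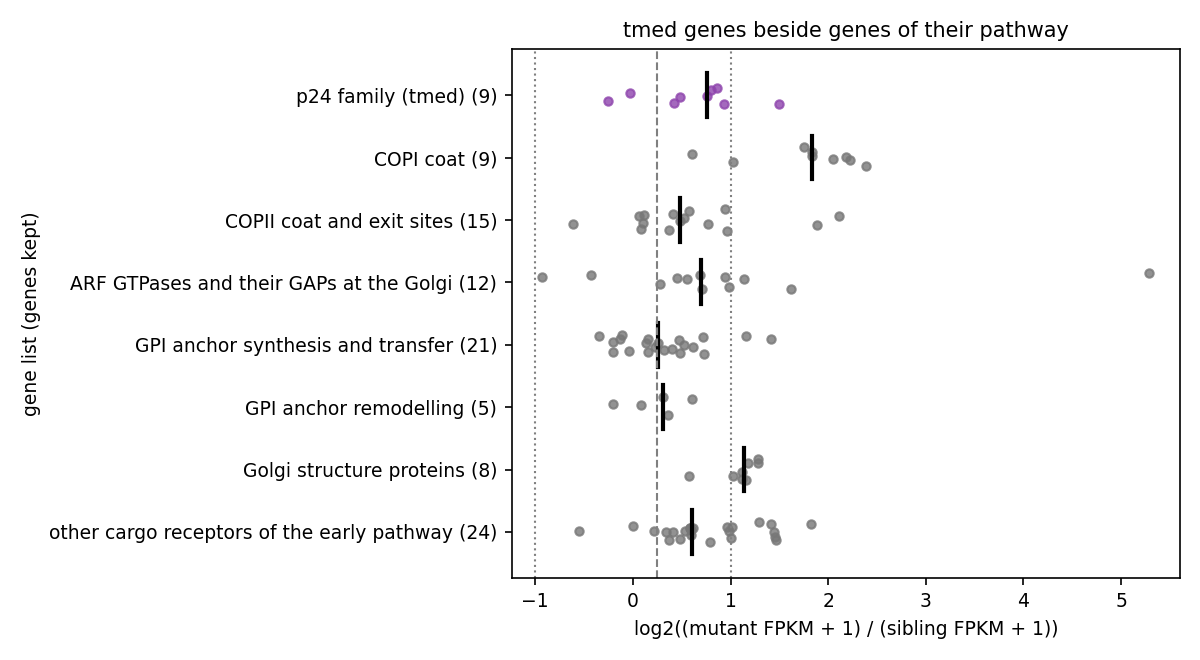
log2 fold on FPKM + 1, mutant over sibling, of each tmed gene and each gene of the lists of its pathway, with the number of genes kept in parentheses and a black bar at each median. The dashed line is the median gene at 0.25 and dotted lines mark 2-fold. The medians are 0.76 for the tmed genes, 1.83 for COPI, 1.14 for Golgi structure and 0.26 for GPI anchor synthesis, and all genes kept have a mean of at least 1 FPKM.

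Genes outside the family were ranked by the Euclidean distance of log2(FPKM + 1) to tmed2, the most abundant member, over both libraries. Those without a symbol or with a colon in it were left out. The nearest were sgk1, bzw1 and ssr1, at distances of 0.068, 0.092 and 0.13. sgk1, a kinase, was at 121 FPKM in the mutant and 63.9 FPKM in the sibling library. bzw1 was at 115 FPKM in the mutant and 66.7 FPKM in the sibling library. ssr1, a subunit of the translocon-associated protein complex of the ER, was at 129 FPKM in the mutant and 71.8 FPKM in the sibling library. With 2 libraries this measures only a like level and a like ratio.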

How the data were processed

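RNA was measured in 2 libraries of sorted kdrl:GFP+ cells, 1 per group. Per the labels' protocols, mRNA was captured on oligo(dT) beads, broken into fragments, primed with random hexamers and PCR-amplified; no step that keeps strand is described. The submitters' processing notes name BWA, Bowtie2, RSEM, bcl2fastq 2.16 and the build GRCz10 without saying what each did, and the annotation release is not given in the sources used here. Expected counts per gene, deposited by the authors, are not normalized and were rounded here for intervals. The FPKM values were deposited by the authors per gene length and assigned fragments, with no scaling between libraries. The authors' tables also list a gene length for each library. Genes missing from a table were given a value of 0 there.

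Gene names came from a table of Ensembl IDs that named 19802 of 21699 genes (91.3%), and many carry a human symbol, printed here in lower case. The log2 fold is that of mutant FPKM + 1 over sibling FPKM + 1, so for low genes it is smaller than the true ratio. Count ratios are per library total, with exact conditional binomial 95% intervals. Pairs of genes were compared by the odds ratio of their counts with its exact conditional interval. Medians and shares of all genes use those with a mean of at least 1 FPKM. No test between conditions, p-value or replicate check was possible. Alternatives used other scalings (TMM from edgeR 4.0.16, median of ratios, TPM), pseudocounts and filters, and 2 were added after seeing the data. Calculations used Python 3.11.15 and scipy 1.17.1 and were tested on simulated counts with counting error only, as the intervals assume. Such a test checks the calculation and not how embryos or sorts vary. Members, lists and markers were chosen with earlier results of these data known. The named genes are all tmed genes, gbf1, the 3 with the largest absolute log2 fold of each pathway list and the 3 nearest to tmed2. Among cell type markers, kdrl and cdh5 are named as defining genes. Other markers, with arf4a, arfgap3, an arf3 gene, golga2 and the chromosomal neighbours named, were chosen after their values were seen. Protein and promoter sequences were not analysed here.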

Additional observations from a re-analysis of the deposited data

How the results depend on the processing

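The median log2 fold of the tmed genes, 0.76 as reported, was above 0 in every alternative run. It was 0.87 with a pseudocount of 0.1, 0.51 centred on the median gene, 0.63 under TMM, 0.62 under median of ratios, 0.88 in TPM, 0.67 without the 10 highest genes and 0.91 by counts per library total. The tmed median was 0.48 both with no filter on low values and with a mean FPKM of at least 5. The median of all genes under these 2 filters was not computed. Without tmed3 it was 0.62. The median of all genes with a mean of at least 1 FPKM was above 0 too in the settings that neither centre nor scale on the bulk of genes. TMM and median of ratios hold that median near 0 by design, at 0.011 and 0.0015. With a pseudocount of 0.1 it was 0.29. In TPM it was 0.37, without the 10 highest genes 0.11 and by counts per library total 0.29. The number of tmed genes at least 2-fold higher, 1 as reported, was 2 with a pseudocount of 0.1 (13% of all genes), 3 in TPM (9.86%) and 2 by counts per library total (13%), against 7.22% of all genes as reported. Against the ratio of the median gene, 4 in place of 7 intervals lay above and 2 in place of 0 below. The number of pairs beyond counting error was 11 with widened intervals in place of 20. Centred on the median gene, the list medians were 1.58 for COPI, 0.23 for COPII, 0.45 for ARF genes, 0.012 for GPI anchor synthesis, 0.89 for Golgi structure genes and 0.36 for other cargo receptors. With a mean FPKM of at least 5, 1 GPI anchor synthesis gene was at least 2-fold higher, in place of 2. The share of all genes past 2-fold at that filter was not computed. The cause of these shifts was not tested. The log2 fold of tmed3 ranged from 1.25 to 1.64 over the settings, that of tmed2 from 0.61 to 1.02 and that of tmed9 from 0.65 to 1.08. That of tmed10 ranged from 0.14 to 0.58 and that of tmed7 from -0.32 to 0.12. Subfamily shares moved by less than counting error in the alternatives run. No paired analysis was possible because each group has 1 library. Depth limits tmed5, tmed4 and tmed8 most, with under 80 counts in each library.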

Other observations

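The RefSeq gene table of the assembly GRCz12tu gave the order of genes along the chromosomes for 8 of the 9 members, tmed1 left out because its paralogs could not be matched. No tmed gene neighbours another there. Of their 16 flanking protein-coding genes, 11 matched a measured gene by symbol, and 0 of these were at least 2-fold higher or lower, where 7.22% of all genes were at least 2-fold higher and 1.29% lower. The log2 fold was above 0 for 10 of the 11, with a median of 0.41, beside 0.25 for the median gene. The exception was fam50a, beside tmed4, at 28.6 FPKM in the mutant and 36.3 FPKM in the sibling library, a log2 fold of -0.34. Most genes with a mean of at least 1 FPKM stood above 0 too, as the -0.03 of tmed7 exceeded only 25.6% of them. lman2, a lectin cargo receptor, lies beside tmed9 and was at 20.2 FPKM in the mutant and 14.9 FPKM in the sibling library. pigc, of GPI anchor synthesis, and suco lie on either side of tmed5, with suco at 15.9 FPKM in the mutant and 8.65 FPKM in the sibling library. fem1c, beside tmed7, was at 17.7 FPKM in the mutant and 10.1 FPKM in the sibling library, a log2 fold of 0.75, while tmed7 had -0.03.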
